A study of Mus musculus with 10 samples.

Results

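Between the untreated late cultures and those given Gdf11, 1847 regions of open chromatin lost their peak call in the Gdf11 libraries. They are the merged regions that overlap a peak of all 4 libraries of days 6 and 7 and a peak of neither library of day 7 with Gdf11. They make up 0.748% of the 246799 merged regions of the series and 3.72% of the 49685 regions called in all 4 late libraries. Of the other late regions, 43511 were called in both Gdf11 libraries and 4327 in 1 of them, 1555 in replicate 1 and 2772 in replicate 2. The regions were chosen by the peak calls of days 6 and 7 and of Gdf11, so every value below that sets these groups side by side is a description. The calls of days 2 and 3 were not used by the choice.

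Accessibility was profiled by ATAC-seq, in which a transposase cuts open DNA and tags it for sequencing. The cells were ES-Bruce4, mouse embryonic stem cells of strain C57BL/6, all wild type and all from this line. All cultures were differentiated in N2B27 medium with 10 ng/ml bFgf, and the Wnt pathway activator CHIR99021 was supplied at 5 uM from day 2. The 5 groups of 2 libraries were untreated cells on days 2, 3, 6 and 7, and day 7 cells that had received 50 ng/ml human Gdf11 for 24 h. The labels call day 2 epiblast stem cells and the later groups neuromesodermal progenitors. They list the medium supplement with or without vitamin A and do not say which libraries had which. The stem cells had been kept on mouse embryo fibroblasts, which were depleted before plating. Nothing in the labels ties replicates 1 and 2 to separate cultures, so p-values measure the spread between libraries, which may be technical.

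Neuromesodermal progenitors sit at the tail end of the embryo and supply both the spinal cord and the paraxial mesoderm, the tissue that forms somites. Gdf11 is a ligand of the TGF-beta family that acts through Smad2 and Smad3 and is known for its part in the transition from trunk to tail and in Hox gene patterning. Open regions away from gene starts are often enhancers, whose use changes with cell state.

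Depth and peak enrichment differed between libraries, and a region can miss a call where either is low. Total counts ran from 7150334 (day 3, replicate 2) to 12335735 (day 6, replicate 1), with 10927890 and 9285217 in the Gdf11 libraries. The peak lists held 80504 to 118603 peaks, and those of the Gdf11 libraries 91192 and 108246. Median fold enrichment of a library's peaks over the caller's background, the authors' value, was lowest in Gdf11 replicate 1 (4.97), followed by day 6 replicate 1 (5.13), and was 5.29 in Gdf11 replicate 2 and 5.53 and 6.25 on day 7. The part of these differences in the missing calls was not tested. Accessibility near genes of the progenitor state was present in both arms and already on day 2, so its presence does not show the state. Summed over assigned regions, T, a transcription factor of the caudal progenitors, had 26.4 to 41.4 CPM (counts scaled to the same library size, defined below) in the late libraries and 25.6 to 29.1 with Gdf11, and Cdx2 had 85.7 to 98.4 and 57.3 to 57.8. On day 2 T had 14.2 and 15.6 CPM and Cdx2 66.8 and 60.7, above the Cdx2 values with Gdf11. Sox2 had 155.5 to 266.5 CPM in the late libraries and 144.2 to 155.5 with Gdf11, and Nkx1-2 15.2 to 23.1 and 16.0 to 16.1. None of the regions assigned to T, Sox2, Nkx1-2 or Cdx2 was among the 1847, and the 1 region assigned to Tbx6, a marker of presomitic mesoderm, was at or below 0.879 CPM in the late libraries.

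Of the 1847 regions, 43 overlapped a promoter window (250 bases before to 50 after an annotated start), and 47 windows in all. The 250 bases before the start are shown for 3 of them as the sequence at hand for the regions at gene starts. They are from RefSeq, build GRCm38.p6, are written 5′ to 3′ on the strand of the gene, and were chosen after the values were seen. Capitals mark the SOX motif ACAATGG or ACAAAG and the E-box CAGCTG on either strand. Gm52922, a long noncoding RNA (chr6:135346514-135346763, minus strand), and 0610039H22Rik, a long noncoding RNA inside Msi2 (chr11:88619001-88619250, plus strand), have all of these bases inside a region. Wnt1, a Wnt ligand of the dorsal neural tube (chr15:98789607-98789856, plus strand), has 183 of its 250 bases inside.
Gm52922: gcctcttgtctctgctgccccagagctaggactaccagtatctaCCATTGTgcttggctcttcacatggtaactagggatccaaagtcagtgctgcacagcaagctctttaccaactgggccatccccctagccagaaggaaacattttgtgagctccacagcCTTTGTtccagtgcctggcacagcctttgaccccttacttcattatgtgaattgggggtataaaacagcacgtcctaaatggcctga
0610039H22Rik: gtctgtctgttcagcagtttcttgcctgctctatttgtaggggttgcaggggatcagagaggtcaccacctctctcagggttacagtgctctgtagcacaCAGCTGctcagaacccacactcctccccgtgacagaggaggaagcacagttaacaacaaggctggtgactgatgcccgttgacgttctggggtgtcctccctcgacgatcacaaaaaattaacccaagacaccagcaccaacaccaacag
Wnt1: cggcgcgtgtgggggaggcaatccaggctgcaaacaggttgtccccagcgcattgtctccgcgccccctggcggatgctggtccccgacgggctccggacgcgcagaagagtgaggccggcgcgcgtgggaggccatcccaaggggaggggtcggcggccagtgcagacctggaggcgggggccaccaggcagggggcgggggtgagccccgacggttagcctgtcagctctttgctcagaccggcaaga
The Gm52922 sequence holds CCATTGT, the reverse of the longer SOX motif, at base -206 from the start and CTTTGT, the reverse of the shorter one, at -87. The 0610039H22Rik sequence holds the E-box at -150, and the Wnt1 sequence holds none of the 3. A match is a description of letters and shows no binding.

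The region over the Gm52922 start (chr6:135346380-135346801), assigned to the nearest protein-coding gene Emp1, had 0.836 and 0.523 CPM on day 2, 5.95 and 4.91 on day 3, 15.0 and 14.1 on day 6, 4.50 and 4.86 on day 7 and 1.10 and 2.15 with Gdf11. It was highest on day 6, and both Gdf11 libraries lay below all libraries of days 3, 6 and 7. The region over the 0610039H22Rik start (chr11:88618893-88619358) had 2.19 and 4.05 CPM on day 2, 2.29 and 3.75 on day 3, 4.71 and 4.92 on day 6, 5.76 and 6.33 on day 7 and 2.03 and 2.04 with Gdf11, so that the Gdf11 libraries lay below all the others. The region at Wnt1 (chr15:98789566-98789789) was at 3.03 and 4.84 CPM on day 2, 1.53 and 3.46 on day 3, 2.40 and 2.74 on day 6, 2.07 and 1.92 on day 7 and 1.44 and 1.29 with Gdf11. Its Gdf11 libraries lay below all the others.

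At the median, the 1847 regions were weaker than the late regions called in both Gdf11 libraries, and lower with Gdf11 than on days 6 and 7. CPM are counts per 1e6 counts of the library, after scaling by its TMM factor. The median over the regions was 0.836 and 0.915 CPM on day 2, 1.70 and 1.59 on day 3, 3.36 and 3.42 on day 6, 2.97 and 3.39 on day 7 and 1.69 and 1.51 with Gdf11. These pooled medians with Gdf11 were near those of day 3. Single regions went both ways, with a Gdf11 mean below the day 3 mean in 991 of the 1847, and so did the classes split by early peaks below. Over the 43511 late regions called in both Gdf11 libraries the medians were 7.11 and 7.06 on day 2, 8.46 and 8.54 on day 7 and 7.34 and 7.64 with Gdf11. For all 173175 regions tested they were lower than for the 1847 on the late days, at 1.92 and 1.92 on day 6 and 1.80 and 1.77 on day 7. The 1847 regions held 0.737% and 0.712% of a library's counts on day 6, 0.619% and 0.655% on day 7 and 0.359% and 0.302% with Gdf11. In bulk libraries, fewer cells with an open region and less opening per cell cannot be told apart.

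**Figure D1:**
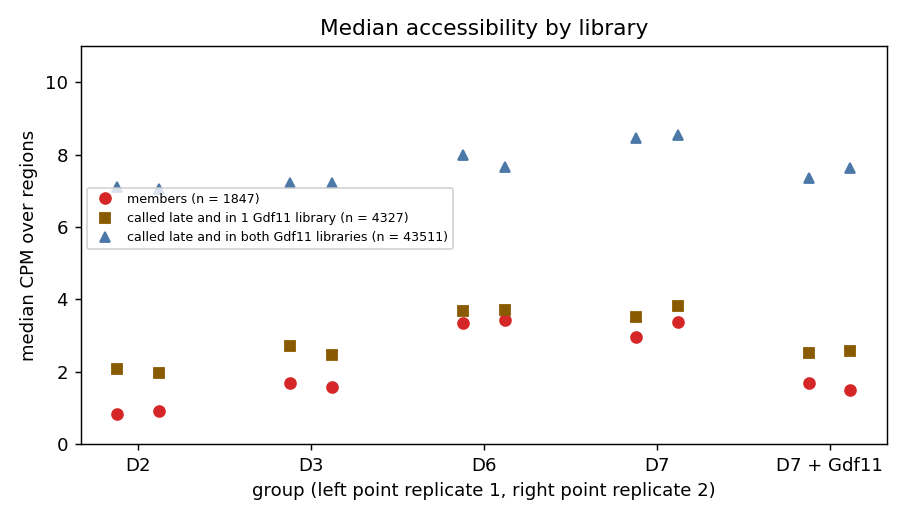
Median CPM (vertical axis) in each of the 10 libraries, by group (horizontal axis, replicate 1 left and replicate 2 right), for the 1847 regions (circles), the 4327 late regions called in 1 Gdf11 library (squares) and the 43511 called in both (triangles). The circles peak at 3.36 and 3.42 on day 6 and stand at 1.69 and 1.51 with Gdf11.

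Although none held a peak with Gdf11, none was empty there. No region had 0 counts in both Gdf11 libraries, and the median raw count was 20 and 14, against 33 and 23 on day 7. Mean CPM over the 4 late libraries ran from 1.42 to 18.6 with a median of 3.35, and over the 2 Gdf11 libraries from 0.180 to 9.75 with a median of 1.55. The median log2 difference between Gdf11 and day 7 was -1.05 over the 1847 regions, -0.48 over late regions called in 1 Gdf11 library, -0.18 over those called in both and 0.03 over all 173175 regions tested. At least 2-fold lower with Gdf11 than on day 7 were 980 regions (53.1%, against 6.33% of all regions tested), and 17 were higher (0.920%, against 51.7%). Both Gdf11 libraries lay below all 4 late libraries in 1567 regions (84.8%, against 10.9%). As the choice used these groups, these counts describe the choice. Between days 6 and 7, both in the choice, 13 regions were at least 2-fold higher on day 7 (0.704%, against 5.4% of all regions tested) and 50 at least 2-fold lower (2.71%, against 9.88%), with a median log2 change of -0.10. From day 3 to day 6, 952 were at least 2-fold higher (51.5%, against 18.4%) and 19 at least 2-fold lower (1.03%, against 12.8%), with a median of 1.04. The choice required a peak on day 6, so the direction of this change is partly set by it.

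**Figure D2:**
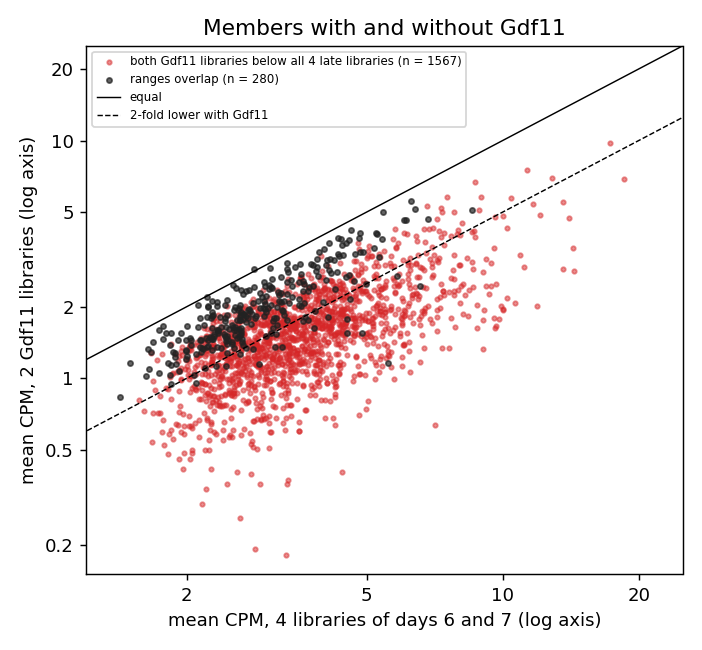
Mean CPM over the 4 late libraries (horizontal, log axis) and over the 2 Gdf11 libraries (vertical, log axis) for each of the 1847 regions; red points have both Gdf11 libraries below all 4 late libraries (1567), and dark points have overlapping ranges. The cloud lies below the line of equality and around the dashed line of a 2-fold difference.

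The peak threshold set the edge of the group. The weakest late peak of a region had a median −log10 q of 4.30 and a lowest of 2.04. In late regions called in 1 Gdf11 library the median was 4.605 and the lowest 1.88. In late regions called in both Gdf11 libraries they were 10.3 and 1.61. Weak late peaks were thus shared with the late regions called in 1 Gdf11 library. Just outside lay the 4206 regions called in 3 of the 4 late libraries and in neither Gdf11 library, with medians of 2.40 and 2.19 CPM on day 6, 2.16 and 2.21 on day 7 and 1.44 and 1.29 with Gdf11. The late regions called in 1 Gdf11 library had 3.68 and 3.69, 3.51 and 3.83, and 2.53 and 2.58. Both neighbours were also lower with Gdf11, by less, so the group is the far end of a range with no gap. The number of regions rests on each library: with 1 library left out of the rule it was 3866 without day 6 replicate 2, 3242 without day 7 replicate 2, 3402 without Gdf11 replicate 1 and 4619 without Gdf11 replicate 2.

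Among regions at or above the median late level, ranked by the log2 difference of group means with a prior count of 2, the largest fall from the late libraries to Gdf11 was at chr3:56493966-56494310, over 50 kb from any protein-coding gene. It had 3.14 and 0.915 CPM on day 2, 1.87 and 1.01 on day 3, 5.59 and 8.35 on day 6, 7.11 and 7.37 on day 7 and 0.844 and 0.430 with Gdf11. The late mean of 7.10 ± 1.14 (SD, n = 4) was 11.2-fold that of 0.637 ± 0.292 with Gdf11 (SD, n = 2). A region 27.9 kb from Hdac2, a histone deacetylase (chr10:37029803-37030103), came next with 0.104 and 0.262 CPM on day 2, 0.679 and 0.866 on day 3, 6.71 and 3.56 on day 6, 3.87 and 3.54 on day 7 and 0.591 and 0.215 with Gdf11. It was open only from day 6 among the untreated groups. The third lay 13.1 kb from Lhx1, a LIM homeodomain factor of spinal interneurons and of early mesoderm (chr11:84538612-84539188). It had 0.209 and 1.05 CPM on day 2, 12.3 and 14.4 on day 3, 8.95 and 9.99 on day 6, 6.30 and 10.9 on day 7 and 1.69 and 0.969 with Gdf11. With Gdf11 it thus stood near its level of day 2. The other 2 of the 5 largest falls, at chr14:103966363-103966579 and chr8:115885461-115886061, were also over 50 kb from a protein-coding gene, with late means 9.01-fold and 5.51-fold those with Gdf11.

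The 3 smallest falls at or above the median late level were at Brpf1, Gucy1a2 and Rrp1. The region inside Brpf1, a reader subunit of a histone acetyltransferase complex (chr6:113307120-113307274), lay over its gene start. It had 4.71 and 5.34 CPM on day 6, 6.21 and 5.45 on day 7 and 3.88 and 6.13 with Gdf11, so the groups overlapped. Regions near Gucy1a2, a guanylate cyclase subunit, and inside Rrp1, an RNA processing factor, had late means 1.10-fold and 1.11-fold those with Gdf11, and their ranges overlapped too. The most accessible region lay 1.34 kb from Fmn2, an actin nucleator (chr1:174499891-174500413). It had 4.81 and 6.28 CPM on day 2, 10.8 and 12.99 on day 3, 13.3 and 17.1 on day 6, 22.2 and 21.8 on day 7 and 6.58 and 7.21 with Gdf11, below all libraries of days 3 to 7. Next in level was a region 13.5 kb from Ythdf1, a reader of methylated adenosine in RNA (late mean 17.2 ± 2.27, SD, n = 4; 9.75 ± 1.13 with Gdf11, SD, n = 2), followed by chr8:127718617-127719114 (14.4 ± 5.98 and 2.84 ± 0.517). A late SD covers the libraries of both days and so holds any difference between the days. The chr8 region had 10.2 and 10.8 CPM on day 6 and 13.5 and 23.1 on day 7.

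**Figure D3:**
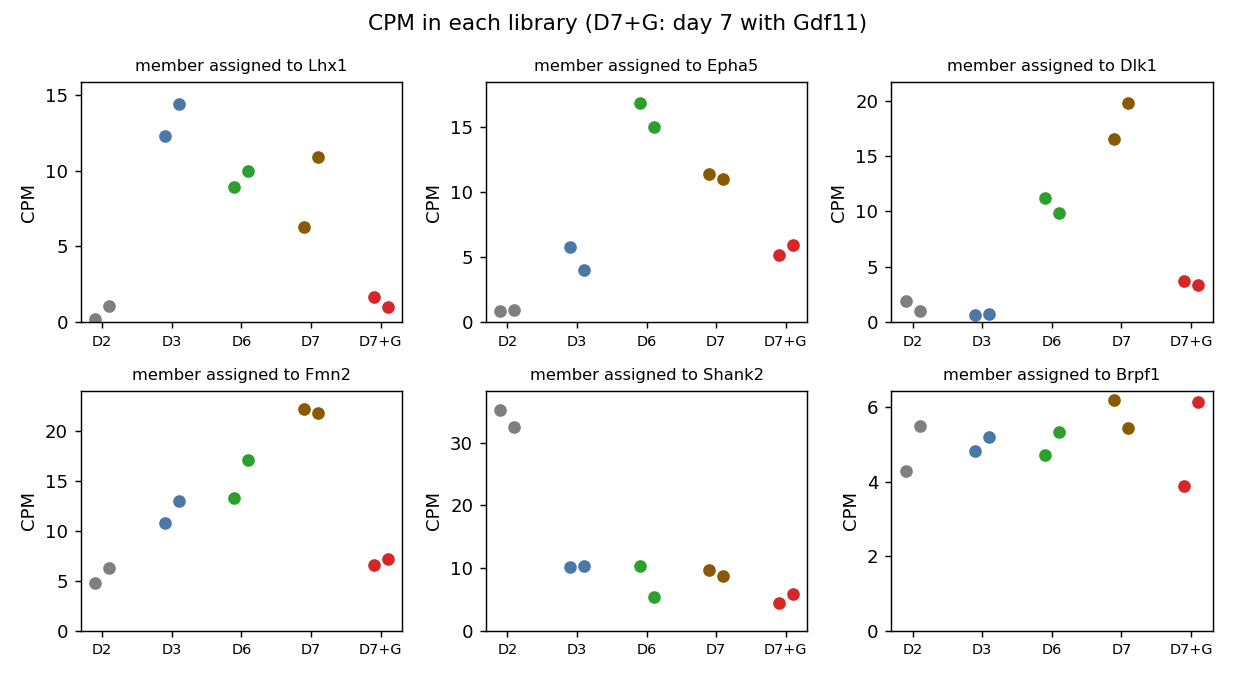
CPM (vertical axis, from 0) in each library of 5 groups (horizontal axis; D7+G is day 7 with Gdf11) for 6 of the regions, titled by the gene they are assigned to; each point is 1 library. The Lhx1, Epha5, Dlk1 and Fmn2 regions are lower with Gdf11 than in any library of days 6 and 7, while the Brpf1 values overlap and the Shank2 region is highest on day 2.

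Split by their calls on days 2 and 3, which the choice did not use, the regions fell into 4 histories. Neither day held a peak in 782 of them (42.3%), against 6.86% of the late regions called in both Gdf11 libraries, 23.6% of those called in 1, 43.6% of the regions called in 3 of the 4 late libraries and in neither Gdf11 library, and 23.4% of all regions tested. A peak was present on day 3 only in 426 (23.1%, against 8.12%), on day 2 only in 124 (6.71%, against 1.54%) and on both days in 515 (27.9%, against 83.5%), the shares in parentheses being those of late regions called in both Gdf11 libraries. Peaks in all 4 early libraries were present in 13.2% of the regions and 74.3% of late regions called in both Gdf11 libraries. The share was 35.2% in late regions called in 1 Gdf11 library and 29.1% in all regions tested. In regions called in 3 of the 4 late libraries and in neither Gdf11 library it was 12.7%, near that of the chosen regions. No test was made of these shares, and the sets differ in level as given above. The regions with no early peak had medians of 0.418 and 0.392 CPM on day 2, 0.849 and 0.722 on day 3, 3.36 and 3.28 on day 6, 3.06 and 3.39 on day 7 and 1.44 and 1.29 with Gdf11. With Gdf11 their median stayed above that of day 3, a day on which this class was picked for holding no peak. Those called on both early days had 3.24 and 3.27, 3.06 and 3.03, 3.12 and 3.42, 2.88 and 3.24, and 1.94 and 1.62. Their level was thus nearly level from day 2 to day 7 and lowest with Gdf11. The split by early peaks and the required peaks of days 6 and 7 partly set both profiles. The median log2 difference between Gdf11 and day 7 was -1.26 in the first of these classes and -0.74 in the other.

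**Figure D4:**
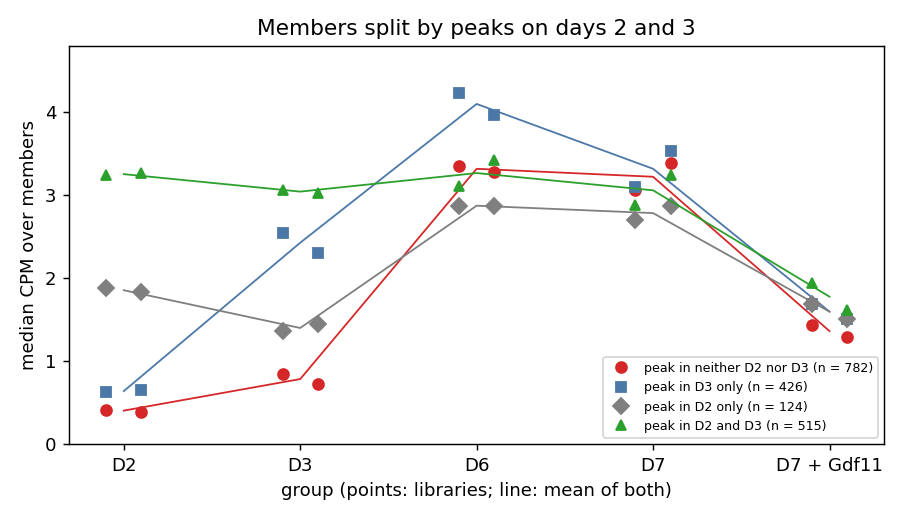
Median CPM (vertical axis) by group (horizontal axis) for the regions split by peaks on days 2 and 3; points are libraries and lines join the means of both libraries. The 782 regions with no early peak rise between days 3 and 6, the 515 with peaks on both early days run level near 3, and all 4 classes are lower with Gdf11 than on day 7. The split and the choice of regions partly set these shapes.

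From day 2 to day 3, the first day after CHIR99021 was added, more of the regions gained accessibility than lost it. By edgeR's quasi-likelihood test (two-sided) with Benjamini-Hochberg adjustment over all 173175 regions tested, 387 of the 1847 were higher on day 3 (21.0%, against 8.82% of all regions tested) and 45 were lower (2.44%, against 4.35%). The other 1415 did not pass. Of all 1847, called or not, 1298 had a positive log2 change. The median log2 change was 0.68, against 0.10 in late regions called in both Gdf11 libraries and 0.07 over all regions tested. The neighbouring sets lay between: 0.36 in regions called in 3 of the 4 late libraries and neither Gdf11 library, and 0.20 in late regions called in 1 Gdf11 library. All 1847 passed the filter on low counts, though many through days 6 and 7, where the choice made them high. Fitted on the libraries of days 2 and 3 alone, whose filter does not use the later days, 1115 of the 1847 were tested, 268 were higher (24.0%, against 10.4% of the 122717 regions tested) and 40 lower (3.59%, against 5.96%). Without day 3 replicate 1 the number higher was 253, and without day 3 replicate 2 the number lower was 28.

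**Figure D5:**
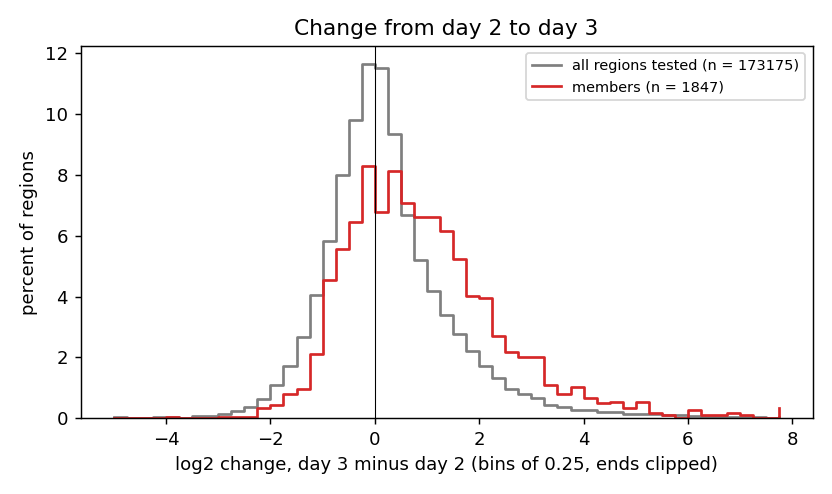
Percent of regions (vertical axis) by log2 change from day 2 to day 3 (horizontal axis, bins of 0.25) for the 1847 regions (red) and all 173175 regions tested (grey). The red curve reaches further to the right, with medians of 0.68 and 0.07.

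The region with the smallest p lay inside Esrrg, an orphan nuclear receptor (chr1:188017345-188017852). It had 0.523 and 0.262 CPM on day 2, 13.3 and 15.6 on day 3, 16.6 and 8.21 on day 6, 4.14 and 3.39 on day 7 and 2.62 and 2.26 with Gdf11. It rose 36.9-fold in mean CPM, with a fitted log2 change of 5.10 ± 0.44 (SE, adjusted p = 1.13e-13, edgeR). Both day 3 libraries lay above both of day 2, and its untreated day 7 libraries were already below those of days 3 and 6. A region 22.7 kb from Krr1, a ribosome biogenesis factor (chr10:111949353-111950017), had 0.209 and 0.654 CPM on day 2, 13.8 and 12.6 on day 3, 9.51 and 7.25 on day 6, 7.65 and 8.54 on day 7 and 3.29 and 1.18 with Gdf11. It rose by 4.97 ± 0.45 (SE; adjusted p = 6.88e-13, edgeR) in both libraries. The Lhx1 region described above rose 21.3-fold (log2 4.47 ± 0.43, SE; adjusted p = 3.13e-12, edgeR), also in both libraries.

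Regions at Fbxl17, a subunit of a ubiquitin ligase, and near Etv4, an ETS factor of Fgf signalling, completed the 5 smallest p-values. The Etv4 region (chr11:101809126-101809688, 23.8 kb away) had 0.104 and 1.18 CPM on day 2, 13.9 and 15.4 on day 3, 5.03 and 4.79 on day 6, 4.23 and 4.71 on day 7 and 1.10 and 2.26 with Gdf11. It rose by 4.61 ± 0.44 (SE; adjusted p = 4.61e-12, edgeR), highest on day 3 in both libraries. The Fmn2 region rose 2.15-fold on day 3 (adjusted p = 0.00111, edgeR; both libraries above both of day 2), a call lost without day 2 replicate 1 (adjusted p = 0.0526). The Gm52922 region rose 7.98-fold (log2 2.96 ± 0.44, SE; adjusted p = 6.61e-07, edgeR), in both libraries.

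Among the 45 that fell, the smallest p belonged to a region inside Shank2, a scaffold of synapses (chr7:144106222-144107178). It had 35.1 and 32.5 CPM on day 2, 10.1 and 10.4 on day 3, 10.3 and 5.47 on day 6, 9.72 and 8.69 on day 7 and 4.39 and 5.81 with Gdf11. It fell 3.30-fold (log2 -1.72 ± 0.22, SE; adjusted p = 3.18e-08, edgeR) in both libraries and still held peaks in all 4 early libraries. A region at chr8:87152359-87152956 had 18.1 and 15.7 CPM on day 2, 4.16 and 4.76 on day 3, 3.28 and 4.92 on day 6, 3.96 and 4.42 on day 7 and 3.46 and 2.91 with Gdf11. It fell 3.78-fold (adjusted p = 5.72e-07, edgeR; both libraries). Regions near Kazn, at Dnah5, an axonemal dynein chain, and at chr11:117600954-117601486 fell 3.70-fold, 4.65-fold and 3.67-fold, each in both libraries (adjusted p between 1.17e-06 and 4.51e-06, edgeR). Of the 45, 19 were called in all 4 early libraries.

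Genes were described through 18 lists, with a region assigned to the protein-coding gene whose span is nearest within 50 kb, which does not show that it acts on that gene. Regions of neuronal differentiation and axon guidance genes were called in all 4 late libraries 276 times, and 18 of these (6.52%, against 3.72% of all late regions) were among the 1847, at 16 of 30 genes. They include receptors of guidance cues (Dcc, Robo1, Robo2, Nrp1, Nrp2, Epha4, Epha5), their ligands (Slit2, Slit3, Efnb2), the Notch ligand Dll1, the LIM factors Lhx1, Lhx2 and Lhx5, and Dcx and Elavl4, proteins of young neurons. Of the 117 late regions of neural progenitor and spinal cord genes, 1 was among them, inside the adhesion gene Ncam1. Most late regions of both lists kept their calls: 232 of the 276 and 105 of the 117 were called in both Gdf11 libraries. The median log2 difference between Gdf11 and day 7 over all late regions was -0.35 in the first list and -0.54 in the second. No test compared the shares.

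The Epha5 region (chr5:84414156-84414571) had 0.836 and 0.915 CPM on day 2, 5.78 and 4.04 on day 3, 16.9 and 15.1 on day 6, 11.4 and 11.1 on day 7 and 5.15 and 5.92 with Gdf11. It rose 5.61-fold on day 3 (log2 2.51 ± 0.39, SE; adjusted p = 2.76e-06, edgeR; both libraries) and with Gdf11 stood at its day 3 level. The Epha4 region (chr1:77461679-77462235) was at 15.5 and 14.8 CPM on day 2, 10.0 and 9.96 on day 3, 7.99 and 6.70 on day 6, 5.31 and 7.66 on day 7 and 3.12 and 3.23 with Gdf11, lower at each group mean in turn. Its change on day 3 did not pass (adjusted p = 0.0987, edgeR). Among the guidance receptors, the Robo2 region had 5.99 and 7.80 CPM on day 6, 2.97 and 5.89 on day 7 and 1.27 and 0.969 with Gdf11, and the Nrp2 region 5.59 and 5.47, 3.78 and 5.45, and 1.60 and 2.15. Both were lower with Gdf11 than in any late library. The Slit2 region differed less, with 5.35 and 4.104 CPM on day 6, 4.86 in each library of day 7 and 3.88 and 3.55 with Gdf11. The Elavl4 region, of an RNA-binding protein, had 4.32 and 4.51 CPM on day 6, 6.03 and 7.66 on day 7 and 2.79 and 3.34 with Gdf11.

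Of 52 late regions of presomitic and paraxial mesoderm genes, 4 (7.69%, against 3.72% of all late regions) were among the 1847, near Meox1, a homeobox factor of somites, Ripply1, a repressor that ends Tbx6 activity, Snai1, a factor of epithelial to mesenchymal transition, and Pcdh8, a protocadherin. The Meox1 region (chr11:101901417-101901694) had 0 CPM in both libraries of day 2, 0.255 and 0.433 on day 3, 4.47 and 3.15 on day 6, 5.94 and 7.07 on day 7 and 1.69 and 2.26 with Gdf11. The Snai1 region (chr2:167527560-167527772) had 2.32 and 2.74 CPM on day 6, 2.79 and 3.68 on day 7 and 1.10 and 0.969 with Gdf11, and the Ripply1 region (chrX:139777419-139777711) 3.44 and 3.83, 4.95 and 4.42, and 1.69 and 1.61. In all 3 the Gdf11 libraries lay below the late ones. Of the 52 late regions of the list, 45 were called in both Gdf11 libraries, and their median log2 difference between Gdf11 and day 7 was -0.42. Of 64 late regions of caudal epiblast and progenitor genes 3 (4.69%) were members, at Epha5, Wnt5b and Greb1, and of 56 of trunk-to-tail genes 1 (1.79%), inside Lin28b, a regulator of let-7 processing (chr10:45458687-45458919). The Lin28b region had 2.40 and 2.33 CPM on day 6, 2.43 and 2.95 on day 7 and 0.591 and 0.538 with Gdf11, a late mean 4.47-fold that with Gdf11.

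No Hox region was among the 1847. Hox genes had 89 late regions, of which 80 were called in both Gdf11 libraries and 9 in 1. By counting error alone 0 of 89 allows a share of up to 3.37%, beside 3.72% of all late regions. This limit takes regions as independent and is no test, so no difference from that share is claimed. Their median log2 difference between Gdf11 and day 7 was -0.68, and it was -0.82 over the 51 late regions of groups 1 to 4, -0.70 over the 26 of groups 5 to 9 and -0.11 over the 12 of groups 10 to 13, the most posterior. Genes of the Hox cofactors, which bind DNA beside Hox proteins, held 5 of 89 late regions (5.62%), among them regions at Pbx3, Meis1 and Meis2. The Meis2 region (chr2:116045716-116046067) had 4.55 and 5.06 CPM on day 6, 4.05 and 3.98 on day 7 and 1.35 and 1.83 with Gdf11, and that of Meis1 3.52 and 4.38, 5.58 and 5.16, and 2.53 and 2.26. In both the late libraries stood apart from those with Gdf11. Of the 89 late regions of cofactor genes, 74 were called in both Gdf11 libraries, with a median log2 difference of -0.62 over the list.

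Among signalling genes, of 98 late regions of TGF-beta and Smad response genes, 6 (6.12%, against 3.72% of all late regions) were members, at Id1, Smad2, Ltbp1, Tgfbr1 and Tgif1. The region beside Id1, an inhibitor of basic helix-loop-helix factors and a target of BMP signalling (chr2:152737444-152737815), had 8.95 and 9.44 CPM on day 6, 9.99 and 10.0 on day 7 and 4.56 and 4.95 with Gdf11. Smad2, a transducer of Gdf11 signals, had a region inside its span with 3.04 and 3.69 CPM on day 6, 4.77 and 7.37 on day 7 and 2.62 and 1.83 with Gdf11. For the type I receptor Tgfbr1 the values were 2.72 and 2.74, 2.43 and 2.80, and 0.338 and 1.29. Of the 98 late regions of this list, 86 were called in both Gdf11 libraries, with a median log2 difference from day 7 of -0.24. Retinoic acid genes held 2 of 67 late regions (2.99%), near the receptor Rxra and in the degrading enzyme Cyp26c1, and Wnt genes 5 of 103 (4.85%), at Ror2, Apcdd1, Nkd2, Fzd10 and Tcf7l1. The region in Ror2, a receptor of Wnt5a (chr13:53276384-53276710), had 0.523 CPM in each library of day 2, 2.97 and 3.32 on day 3, 3.75 and 4.65 on day 6, 4.50 and 5.01 on day 7 and 1.35 and 1.72 with Gdf11. It rose 6.02-fold on day 3 (log2 2.55 ± 0.54, SE; adjusted p = 0.000431, edgeR; both libraries).

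Markers of other cells that the cultures could hold were described in the same way. Endoderm genes had 3 of 34 late regions among the 1847 (8.82%, against 3.72% of all late regions; Cer1 and Gata4 among their genes), lateral plate, heart and blood genes 1 of 40 (2.50%, Runx1) and fibroblast genes 1 of 35 (2.86%, Twist2). The median log2 difference between Gdf11 and day 7 over all late regions of these lists was -0.27, -0.10 and -0.20. Pluripotency and epiblast genes had 1 of 66 (1.52%, Utf1), with a list median of -0.06, and housekeeping genes 0 of 40, which allows up to 7.50%, with -0.31. Whether cell makeup differed between the cultures was not tested.

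Of the 1847 regions, 1342 were assigned to 1188 genes, and 127 genes had 2 or more. The most, 5 each, fell to Gpc5, a glypican of the cell surface, and Ntm, an adhesion protein of neurons, followed by Ccbe1, Kirrel3 and Rbms3 with 4 and by 15 genes with 3, of which Adamtsl1, Celf2 and Csmd1 are first by symbol. These genes span 235.0 to 1642.8 kb and hold many regions: Gpc5 had 128, of which 21 were late, and Ntm 101, of which 18 were late. The Celf2 region at chr2:7171126-7171602, inside the gene of a splicing regulator, had 0.104 and 0.131 CPM on day 2, 0.934 and 0 on day 3, 8.79 and 7.53 on day 6, 8.997 and 5.89 on day 7 and 2.03 and 2.48 with Gdf11. It opened between days 3 and 6, and its late mean was 3.47-fold that with Gdf11. The other Celf2 regions had late means 3.53-fold and 1.155-fold those with Gdf11. In the last, at chr2:6819347-6819661, the Gdf11 and late ranges overlapped. Of 4 regions in Kirrel3, an adhesion protein of synapses, that at chr9:34875712-34875963 had 5.83 and 3.83 CPM on day 6, 6.21 and 8.10 on day 7 and 1.27 and 1.18 with Gdf11. Its late mean was 4.89-fold that with Gdf11.

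Dlk1 and Rtl1 are imprinted genes that share a locus on chromosome 12 with the noncoding RNA Meg3. Of the 14 late regions assigned to them 5 were members, where 3.72% of all late regions were. The locus was singled out after its values were seen. The region 48.2 kb from Dlk1 (chr12:109403677-109404276) had 1.88 and 1.05 CPM on day 2, 0.679 and 0.722 on day 3, 11.2 and 9.85 on day 6, 16.6 and 19.7 on day 7 and 3.71 and 3.34 with Gdf11. It was highest on day 7 and its late mean was 4.07-fold that with Gdf11. A region 7.75 kb from the start of Meg3 (chr12:109553143-109553499) ran otherwise, with 6.79 and 8.11 CPM on day 2, 6.96 and 7.65 on day 3, 3.60 and 3.15 on day 6, 5.04 and 2.80 on day 7 and 2.19 and 2.04 with Gdf11. Also chosen after its values were seen was a region assigned to Sox5, a SOX factor of neural development. The region starting at 144151928 on chromosome 6 had 0.104 and 0.262 CPM on day 2, 0.425 and 0.866 on day 3, 6.23 and 7.11 on day 6, 5.85 and 7.37 on day 7 and 1.35 and 2.48 with Gdf11.

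In width and place the 1847 regions were set beside the late regions called in both Gdf11 libraries. Their median width was 286 bp, against 419 bp, and 233 bp over all regions tested, and the median distance to a start was 32.3 kb, against 12.96 kb and 22.3 kb over all regions tested. Within 1 kb of a start lay 126 of the 1772 regions on chromosomes with annotated starts (7.11%), against 30.1%. Over 50 kb from any protein-coding gene lay 505 (27.3%, against 15.5%), and 46.3% lay inside a gene span, against 61.9%. Late regions called in 1 Gdf11 library lay between the sets in each of these: 297 bp, 24.7 kb, 10.45%, 20.8% and 51.6%. Over all regions tested the last 3 shares were 14.7%, 20.9% and 52.5%. The regions called in 3 of the 4 late libraries and in neither Gdf11 library had a median width of 236 bp and a median distance of 28.9 kb to a start, with shares of 6.4%, 24.2% and 49.9%. The sets also differ in level, as given above, and its part in these differences was not tested. Neighbouring regions of the 1847 were a median of 778.9 kb apart.

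The 47 promoter windows they overlap were searched on both strands for 14 short motifs, which do not contain one another. The E-box CAGCTG was in 15 of the 47 (31.9%), against 15.0% of the windows overlapped by late regions called in both Gdf11 libraries and 16.3% of all 32817 windows of the same length. The GC box GGGCGG was in 42.6%, against 68.2% and 35.6%. The SOX motifs ACAATGG and ACAAAG were in 4.26% and 19.1%, near their shares of 3.67% and 18.7% in all windows. In the windows of late regions called in both Gdf11 libraries their shares were lower, at 1.825% and 12.6%. GGAATG (TEAD) was in 23.4%, against 14.7% of all windows, AGGTCA (nuclear receptors) in 23.4%, against 16.3%, and CAGACA (SMAD) in 21.3%, against 21.0%. In the same order, the windows of late regions called in both Gdf11 libraries had 11.3%, 10.97% and 14.8%.

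Of the other motifs, CTGTCA (MEIS) was in 12.8%, against 19.2% of all windows, CATCTG (another E-box) in 10.6%, against 17.2%, the GATA factor motif AGATAA in 6.38%, against 11.2%, and TTTATGG (CDX and posterior HOX) in 2.13%, against 2.75%. In the same order, the windows of late regions called in both Gdf11 libraries had 15.9%, 10.6%, 4.98% and 1.495%. CTTTGAA (TCF and LEF), TAATTA (homeobox) and TGANTCA (AP-1) were in none of the 47, and in 5.14%, 5.30% and 7.81% of all windows. They were in 3.11%, 1.98% and 3.895% of the windows of late regions called in both Gdf11 libraries. With 47 windows 1 window is 2.13%, and promoters are a small part of the group.

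The authors' deposited table of motif enrichment for the comparison of day 7 with Gdf11 gives, for 2902 sequences in the lower direction, mostly SOX motifs at the top. How the authors chose these sequences is not stated, and they are not the 1847 regions. In the authors' deposited table the Sox2 motif was in 51.8% of the target and 22.6% of the background sequences (natural log of p -585), and the Sox3 motif in 72.2% and 41.4%. The Sox10, Sox15 and Sox6 motifs completed the first 5, with 68.6%, 53.5% and 64.8% of the targets in the authors' deposited table. Lower in the same authors' deposited table stood Hoxc9 (27.0% against 10.8%) and LEF1 (34.5% against 17.9%), both picked after the table was read. In the other direction, the first motif of the authors' deposited table was Jun-AP1, in 28.1% of 523 target sequences against 4.86% of the background, and Fosl2, Fra1, Fra2 and JunB, all of the AP-1 family, came next. A further table of the authors with 49 target sequences in the higher direction began with Atf7, Atf1, Smad2, Smad4 and Jun-AP1, and the authors' deposited table puts the Smad2 motif in 81.6% of them against 40.6% of the background.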

How the data were processed

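Per the submitters' processing notes, the tools were MACS2 2.1.1.20160309, HISAT2 2.1.0, HOMER 4.10, bedtools and SAMtools, on build mm10, with roles and order not given in the sources used here. The deposited count tables hold raw counts per region and library, without coordinates. In the deposited peak lists, called per library, each peak carries a ratio, its fold enrichment, and the −log10 of its q. The deposited motif tables give percent of sequences with a motif and a score, the natural log of p (checked on 256 motifs against a binomial test, ratios 0.996 to 1.00).

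The 10 peak lists were merged with chromosomes in character order, which gave 246799 regions, as many as were counted. No library then had 0 counts at its own peaks, against 1139 to 10187 such peaks in numeric order. Counts were fitted in edgeR 4.0.16 (R 4.3.3) by quasi-likelihood with filterByExpr (173175 regions kept, 73624 removed), TMM factors and 1 fit of 10 libraries by group, and log2 CPM values used a prior count of 2. P-values were adjusted by Benjamini-Hochberg, threshold 0.05. Folds of single regions are ratios of mean CPM, while log2 changes from day 2 to day 3 are estimates of the fit, so they can differ a little. Each SE was computed from the fit as the absolute log2 change divided by the square root of its F statistic. A permutation test of 2 against 2 libraries cannot go below 0.333, so group differences of region sets carry no p. Limits on a share of 0 use 3 counts and cover counting error only.

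Regions were assigned to the nearest protein-coding gene within 50 kb. Starts and sequences are from RefSeq GRCm38.p6, with no starts used for chromosome 18. Members, gene lists and motifs were chosen with earlier results of these data known. Motifs over 7 letters were dropped before the search, and the E-box was capitalised after it. Named were the 5 largest and 3 smallest falls at or above the median late level, up to 5 smallest p per direction on day 3, up to 3 regions per list by late level, the 8 genes with most regions (ties by symbol), the 3 highest levels and the first 5 motifs of each table. Further members of the lists, the Dlk1 locus, the Sox5 region and the printed promoters were added after values were seen. Some regions that the rule names are not reported here. Same-numbered libraries did not deviate together (10 correlations of -0.000744 to 0.0326), so numbers were not taken as pairs.

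Alternatives tried were other scaling, no filter, DESeq2 1.42.0, the D2 and D3 libraries alone, a replicate block, each library left out and 3 other peak rules, the effect of these last on day 3 and Gdf11 values being added after seeing the data.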

Additional observations from a re-analysis of the deposited data

How the results depend on the processing

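With 1 library left out of the rule, the number of regions ran from 2208 to 4619. It was 4619 and 3402 where Gdf11 replicate 2 or 1 was left out, 3866 where replicate 2 of day 6 was and 3242 where that of day 7 was. A −log10 q of at least 5 gave 1435 regions (640 shared with the 1847), an equal number of peaks per library 1893 (1089 shared), and cover of at least 50% of the region 1868 (769 shared). The share higher on day 3 was 15.0% to 27.1% over these choices, against 21.0%. On day 3, the number higher was 253 to 322 with 1 library left out (253 without day 3 replicate 1) and 263 with DESeq2, and the number lower 28 to 36 (28 without day 3 replicate 2) and 30. The median log2 change on day 3 was 0.46 with the libraries of days 2 and 3 alone, whose own filter keeps fewer of the regions, and 0.51 to 0.70 with 1 library left out (0.51 without day 3 replicate 1). The median between days 6 and 3 was 1.03 to 1.18 in the same way (1.18 without day 3 replicate 1). The median between Gdf11 and day 7 was -0.99 to -1.16 with 1 library left out and -0.89 with library size as the only scaling, against -1.05. The median between days 7 and 6, -0.10, ran from -0.01 to -0.17 with 1 library left out and was -0.21 with library size as the only scaling, which moves the median of all regions from -0.02 to -0.12 there and from 0.03 to 0.19 between Gdf11 and day 7. With the replicate number as a block, 394 were higher and 48 lower on day 3, with a median of 0.69, and none of the 83 named regions changed its call. DESeq2 lost 7 of these calls and leaving out a library 4 to 8, and leaving out a library added up to 1. No called result reversed. For 26 of the 83, none past the threshold, the day 3 change took the other sign in at least 1 setting, 45 times in all and never past the threshold there. With 1 library left out, their log2 changes ran from -1.09 to 0.71 at the region at chr3:56493966-56494310, -0.22 to 0.30 at Gucy1a2, -0.14 to 0.17 at Brpf1, -4.48 to 4.81 at Ncam1, -0.29 to 2.16 at Wnt5b, -0.13 to 0.17 at Smad2, and -0.50 to 1.52 at Ltbp1. They ran from -0.12 to 0.23 at Apcdd1, -0.30 to 0.21 at Utf1, -0.43 to 0.28 at Cer1, -0.21 to 0.33 at Gata4, -0.45 to 1.24 at Twist2, -1.69 to 0.21, -0.50 to 0.29, -0.48 to 4.91 and -4.97 to 1.94 at 4 regions of Gpc5, and -0.048 to 0.69 and -0.45 to 5.72 at 2 regions of Ntm. They ran from -5.30 to 1.55 at Ccbe1, -0.46 to 0.045 at Kirrel3, -0.39 to 2.33 at Rbms3, -3.27 to 2.86 at Celf2, -5.72 to 1.02 at Csmd1, -0.16 to 0.049 and -0.10 to 0.94 at 2 regions of Rtl1, and -0.48 to 0.36 at Msi2. With DESeq2 they were -0.012 at Gucy1a2, -0.0096 at Brpf1 and -0.015 at Smad2. With the libraries of days 2 and 3 alone they were 0.018 at Utf1 and 0.027 at Rtl1. The median region held 20 and 14 counts in the Gdf11 libraries, and a missing call is not a count of 0.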
